A study of Mus musculus with 6 samples.

Results

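The Peg3 domain is an imprinted cluster on mouse chromosome 7, and 4 of its genes are described here: Peg3, Usp29, Zim1 and Zfp264. They were chosen by name as neighbouring genes, out of 52609 annotated genes with transcripts in the files, after their levels with and without Activin A had been seen in these same libraries. Their differences between the groups are therefore given as descriptions, with no test. All transcripts of each gene in GENCODE release M21 were summed. Of the 4 genes, 3 were detected and Zfp264 had 0 reads in all 6 libraries.

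The libraries hold polyadenylated RNA of epiblast stem cells of the mouse, a primed form of pluripotent cell taken from the epiblast and kept here on inactivated fibroblast feeder cells. Both groups of 3 received FGF2 at 10 ng/mL, the Wnt secretion inhibitor IWP2 at 5 µM and SB431542, an inhibitor of Activin, Nodal and TGF-beta type I receptors, at 2 µM. One group also received Activin A, a TGF-beta family ligand, at 20 ng/mL, and in the other it was left out. The title of the series points to the bearing of Activin A on the choice of the ectoderm lineage. Cells of 2 lines are mentioned in the design text, while the sample labels name none, so a difference in cell line and the absence of Activin A cannot be told apart. The treatment protocol, which is the same for all 6 samples, names Activin A, and so does the growth factor entry of replicate 1 of the group without it, although the title and the genotype entry of that sample say that it had none. The log2 folds of the domain genes, the Peg3-204 share and the counts for imprinted genes, imprint maintenance genes, PEG3 partners and feeder markers are given with and without that replicate, and the other results with it only. Nothing in the labels says that the samples were separate cultures. The p-values thus set the difference between groups only against the spread of these samples within groups, and that spread may be technical.

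Imprinted genes are transcribed mainly from the copy inherited from one parent. In the mouse, Peg3, Usp29 and Zfp264 are known as paternally expressed and Zim1 as maternally expressed, and a region methylated on the maternal copy lies at the shared start of Peg3 and Usp29. Peg3 encodes a large zinc finger protein, also called PW1, known from embryonic tissue, brain, muscle and mesenchymal progenitor cells. Usp29 encodes a ubiquitin-specific protease, and Zim1 and Zfp264 are zinc finger genes. The files give one value per transcript and do not separate the parental copies.

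On GRCm38 the 4 genes span 319.8 kb. Zim1 (ENSMUSG00000002266.17, chromosome 7, 6671269 to 6696450) and Peg3 (ENSMUSG00000002265.16, chromosome 7, 6703892 to 6730431) lie on the minus strand, 7.44 kb apart. Usp29 (ENSMUSG00000051527.11, chromosome 7, 6730578 to 6967219) lies on the plus strand, and 147 bases separate its first base from the far end of Peg3, so that the pair is transcribed away from a common stretch. Zfp264 (ENSMUSG00000109176.1, chromosome 7, 6977246 to 6991087) follows Usp29 on the plus strand and is annotated as a transcribed pseudogene.

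The stretch between the RefSeq starts of Peg3 and Usp29 is shown because transcripts of both genes start at its ends. The bases before Zim1 are shown beside it as the start of the third detected gene. RefSeq promoter windows of GRCm38.p6 were found for 3 of the 4 genes. The first is chr7:6730420-6730582 on the plus strand, with Peg3 starting before its left end and Usp29 after its right end. Usp29-205, the transcript with most of the Usp29 reads, is annotated to start further on, at 6730945, so the stretch does not border its start. The second is chr7:6696433-6696682 on the minus strand. Capitals mark CCAAT boxes, the GC box GGGCGG, and the GC-rich motif GGCGCC that SMAD proteins can bind.
Peg3 and Usp29: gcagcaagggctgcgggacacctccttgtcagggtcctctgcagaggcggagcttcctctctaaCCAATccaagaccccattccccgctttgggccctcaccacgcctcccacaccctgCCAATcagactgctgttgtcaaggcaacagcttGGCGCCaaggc
Zim1: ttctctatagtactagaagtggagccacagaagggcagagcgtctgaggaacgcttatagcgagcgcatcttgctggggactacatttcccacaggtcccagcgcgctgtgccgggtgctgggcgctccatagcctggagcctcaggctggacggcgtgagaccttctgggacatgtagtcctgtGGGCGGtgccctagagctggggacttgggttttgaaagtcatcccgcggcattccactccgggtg

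The shared stretch of 163 bases holds 2 CCAAT boxes, a motif present in 25.9% of 32851 RefSeq promoter windows cut to the same length, and 1 GGCGCC, present in 7.44% of them. It holds 5 CpG sites, against a median of 4. The 250 bases before Zim1 hold 1 GC box, which 32.7% of windows of that length have, no CCAAT box and 14 CpG sites, against a median of 6. Searched on both strands, TGACGTCA (the cyclic AMP response element), GCCATNTT (YY1), GTCTAGAC (the SMAD palindrome) and AATNCACA (FOXH1) had no match in either stretch. A match to TGACGTCA stands within the 250 bases before Peg3, past the start of Usp29, and 1.55% of windows have one. These matches are descriptions of the letters only.

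Peg3, Usp29 and Zim1 were each about 2-fold higher without Activin A. On the CPM scale, which divides each count by its library's total after TMM scaling, Peg3 had 214, 199 and 221 in replicates 1 to 3 with Activin A, and 438, 453 and 445 without it. Every library without Activin A lay far above every library with it, and the libraries within a group lay close together. The means were 211 ± 11.3 and 445 ± 7.61 CPM (SD, n = 3 each), a fold of 2.11, and edgeR gave a log2 fold (without minus with) of 1.08, standard error 0.05. These values rest on 2215 to 6724 reads per library, and left Peg3 at position 816 with and 299 without Activin A when the 15448 tested genes were ordered by mean CPM.

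Usp29, the neighbour that starts beside Peg3, was far less abundant. Its levels were 5.01, 4.10 and 4.99 CPM with Activin A and 11.1, 7.48 and 9.05 without, on 50 to 157 reads per library. The groups did not overlap, but the libraries without Activin A were more spread, with replicate 1 the highest. The means were 4.70 ± 0.521 and 9.22 ± 1.83 CPM (SD, n = 3 each), a fold of 1.96 and a log2 fold of 0.97, standard error 0.16.

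Zim1, the maternally expressed zinc finger gene on the other side of Peg3, was the least abundant of the detected genes. It had 1.71, 1.39 and 1.90 CPM with Activin A and 4.68, 3.50 and 3.51 without, on 19 to 66 reads per library. Again the groups did not overlap, and replicate 1 without Activin A was the highest library. The means were 1.67 ± 0.256 and 3.90 ± 0.675 CPM (SD, n = 3 each), a fold of 2.35 and a log2 fold of 1.23, standard error 0.21. The standard errors of Usp29 and Zim1 are 3 to 4 times that of Peg3, which has many more reads.

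**Figure D1:**
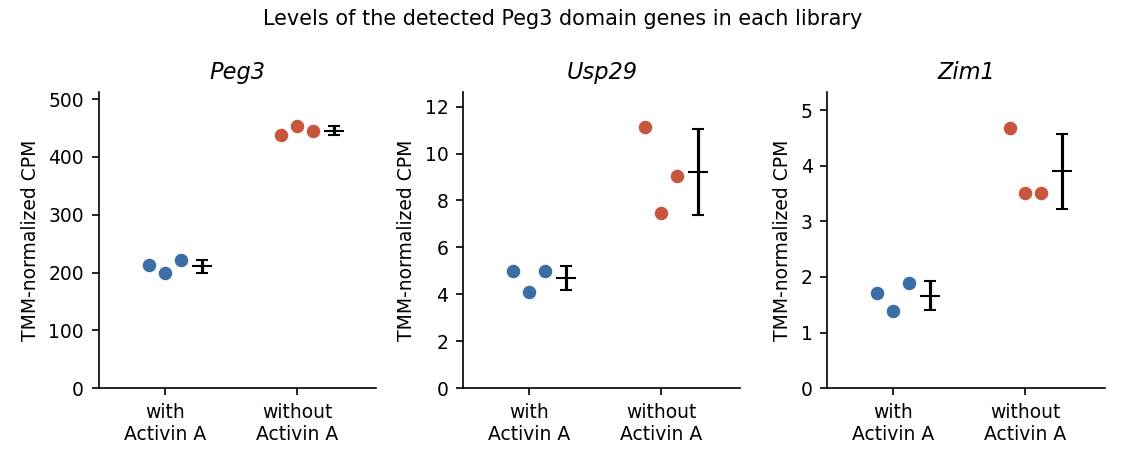
TMM-normalized CPM of Peg3, Usp29 and Zim1 (vertical axes, each from 0) in the 3 libraries with and the 3 without Activin A. Points are libraries and bars show the mean ± SD. For each gene all libraries without Activin A lie above all libraries with it, and Peg3 is the most abundant, at 199 to 221 CPM with and 438 to 453 CPM without.

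For all 3 detected genes each library without Activin A was above each library with it, an arrangement found for 21.3% of the 15448 genes tested, with the opposite one in 21.6%, and 14.0% of tested genes were called higher at an adjusted p of 0.05. Nothing is read from that count, since the genes were chosen on this contrast. A log2 fold at least that of Usp29 was reached by 1.87% of tested genes, and the median over all of them was 0.0012. Without replicate 1 of the group without Activin A, the log2 folds were 1.09 for Peg3, 0.81 for Usp29 and 1.08 for Zim1. In bulk RNA, more cells that express a gene and more RNA per cell cannot be told apart.

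Zfp264 gave no read in any library. A count of 0 allows up to 3 reads per library, which is 0.183 to 0.299 CPM at these depths, so a difference was not detectable. Of its sequence words of 31 bases, 16.5% also occur in other genes, chiefly the gene models Gm18781 and Gm18122. Of the other annotated genes of the cluster, Zim2 had 0 reads in every library, and Zim3, annotated antisense to the far end of Usp29, had 1 to 4 reads per library. Peg3os, a transcript antisense to Peg3, was not analysed here.

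Levels per length were compared in TPM. Peg3 had 16.0 ± 1.83 TPM with and 34.7 ± 1.95 TPM without Activin A (SD, n = 3 each). Usp29 was at 0.791 ± 0.159 and 1.96 ± 0.632 TPM, which is 4.94% and 5.64% of the Peg3 level. In that sum Usp29-209, a processed transcript of 447 bases, had 0.593, 0 and 0.837 TPM in replicates 1 to 3 without Activin A. Those values stand on 2.67, 0 and 3.58 reads, and none of its sequence words is found in it alone. With Activin A it had at most 0.0621 TPM. The Usp29 percentages thus turn in part on a few reads. Zim1 was at 0.308 ± 0.289 and 0.898 ± 0.196 TPM, or 1.93% and 2.59% of the Peg3 level. The order Peg3, Usp29, Zim1 held in each of the 6 libraries. With Activin A the ranges of Usp29 (0.620 to 0.933 TPM) and Zim1 (0.110 to 0.639 TPM) overlapped, and without it they did not (1.23 to 2.38 and 0.673 to 1.03 TPM).

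Nearly all Peg3 reads were assigned to Peg3-201, the full-length coding transcript of 9 exons and 8694 bases. Its levels were 15.2, 13.7 and 17.1 TPM with Activin A and 31.1, 33.7 and 31.8 TPM without, 2.10-fold higher in the means. Peg3-204 is annotated as a retained intron transcript of 2 exons, covers the 5′ part of the gene and ends where the gene starts at chromosome 7, 6730431. It had 0.386, 0.285 and 0.586 TPM with Activin A and 1.83, 1.93 and 1.59 TPM without, 4.26-fold higher in the means. Its share of the gene's TPM was 2.37%, 2.03% and 3.32% with Activin A and 5.41%, 5.23% and 4.75% without, again with no overlap. The mean share was thus 2.56 percentage points higher without Activin A, 2.42 points without replicate 1 of the group without Activin A, and 1.48 points when shares of reads were taken in place of TPM. Of the sequence words of Peg3-204, 95.4% occur in no other transcript. Of the 2 transcripts annotated for nonsense-mediated decay, Peg3-203 was at 0 in every library and Peg3-202 at 0 to 1.33 TPM, with 0 in 3 libraries.

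Usp29 reads came mainly from non-coding transcripts at the end next to Peg3. Usp29-205, a processed transcript of 3 exons that runs over 39.2 kb from its start at 6730945, had 66.1, 42.1 and 34.3 reads with Activin A and 127, 94.3 and 91.5 without, which is 68.6% to 84.7% of the gene's reads. Its level was 0.603, 0.444 and 0.555 TPM with and 1.36, 1.01 and 1.03 TPM without, 2.12-fold higher in the means. Usp29-205 ends 191 kb before the last exon of Usp29-204, the longest coding transcript. The 4 transcripts annotated as protein coding together had 4.62, 8.71 and 10.2 reads with Activin A and 11.5, 10.3 and 9.02 without, so they showed no separation at this depth and made up 5.63% to 20.3% of the reads. The level and the difference given for the gene Usp29 are therefore mostly those of transcripts not annotated as protein coding. Of the gene's sequence words, 16.0% occur in other genes, chiefly in Zim3 on the opposite strand. The authors' use of strand in counting is not given in the sources used here.

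**Figure D2:**
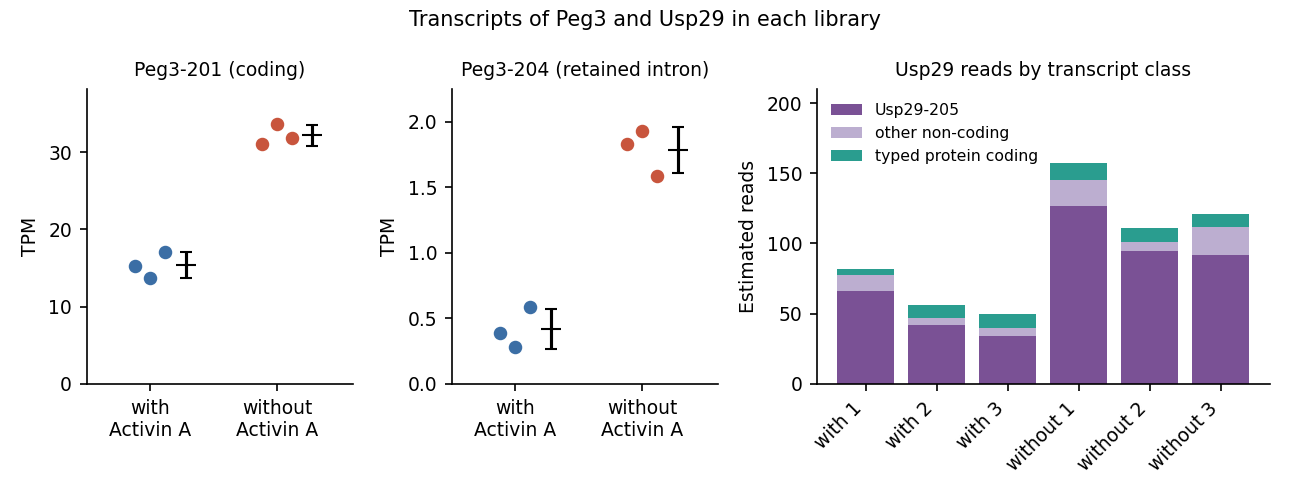
TPM of the coding transcript Peg3-201 and of the retained intron transcript Peg3-204 in each library, with mean ± SD, and estimated reads of Usp29 in each library split by transcript class, not scaled for depth. Peg3-204 lies at 0.285 to 0.586 TPM with and 1.59 to 1.93 TPM without Activin A, and Usp29-205 holds 68.6% to 84.7% of the Usp29 reads.

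Zim1 had few reads, and most of them fell on 1 of its 4 transcripts. Zim1-201, the longest coding form, had 23.9, 19 and 16.3 reads with Activin A and 53.2, 40.9 and 37.2 without. That is 78.6% to 100% of the gene's reads. Zim1-202, also annotated as coding, had 4.15, 0 and 0 reads with Activin A and 10.8, 10.1 and 4.88 without. Zim1-204, a processed transcript of 408 bases, had 0, 0 and 1 reads with Activin A and 2, 1 and 2 without. Because it is short, those reads stand for 0.417 TPM in the 1 library with Activin A and 0.275 to 0.583 TPM in the libraries without it, more than the TPM of Zim1-201 in each of those libraries. The summed TPM of Zim1 thus turns on single reads. The log2 fold of the gene was 1.92 with a standard error of 0.54 when transcript lengths entered the fit as an offset, and 0.55 on the log2(TPM + 1) scale, which understates folds of low genes.

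None of the other tested genes around the domain was called. Within 1 Mb of Peg3 on either side, 85 further genes have transcripts in the files and 17 of them had enough reads to be tested. By edgeR's quasi-likelihood test 0 of the 17 were called, with adjusted p-values of 0.0685 to 0.987, against 29.2% of all tested genes. That share covers genes of all levels and was not matched to these neighbours. They averaged 0.653 to 29.2 CPM with Activin A, with standard errors of the log2 fold of 0.08 to 0.42. At an unadjusted p under 0.05 there were 3 of the 17, and DESeq2 and limma-trend each called 0. Their median log2 fold was -0.10, and 10 of the 17 were negative. One gene was called without the library with Activin A replicate 3, namely Clcn4, a chloride transporter gene (adjusted p = 0.00389), and one with the length offset, namely Zfp444 (adjusted p = 0.0417), as higher, against its negative log2 fold of -0.10 on the counts alone.

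The neighbours included 10 genes named Zfp, which encode zinc finger proteins, with log2 folds of -0.38 to 0.29. Zfp444 had 29.2 ± 2.54 and 27.3 ± 0.794 CPM in the groups with and without Activin A, and Zfp787 at 16.3 ± 2.49 and 18.9 ± 2.45 CPM (SD, n = 3 each). Clcn4 was at 24.7 ± 3.50 and 27.5 ± 0.838 CPM. Zfp954 had 12.6 ± 1.74 and 10.1 ± 1.41 CPM. The lowest log2 fold was that of Nlrp4c, at 1.02 ± 0.229 and 0.538 ± 0.176 CPM, and the highest that of the gene model Gm3854, at 3.40 ± 0.228 and 4.35 ± 0.520 CPM. For the 17 genes, the log2 fold plus 1.96 standard errors reached 0.95 at most. That is a normal quantile, which is narrow for 3 libraries per group. The tested gene whose start is nearest to that of Peg3, Olfr1336, starts 274 kb away, and the 68 neighbours not tested had at most 20 reads in any library.

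**Figure D3:**
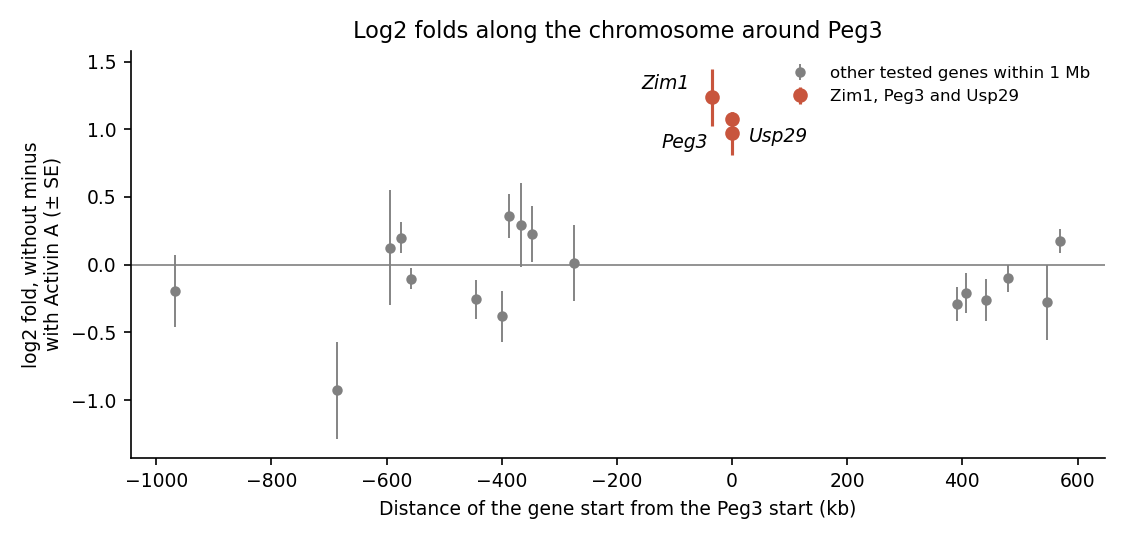
Log2 fold change, without minus with Activin A, with its standard error (vertical axis), by the distance of each gene's start from the start of Peg3 in kb. Zim1, Peg3 and Usp29 lie between 0.97 and 1.23, and the other 17 tested genes between -0.93 and 0.36.

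Imprinted genes of other loci moved in both directions. Of 70 such genes listed, 63 were tested, of which 15 rose, 12 fell and 36 did not pass, against 14.0% of all tested genes called higher and 15.2% called lower. The median log2 fold was 0.07. Peg10, a retrotransposon-derived gene, rose 6.42-fold to 499 ± 7.87 CPM, Igf2, a growth factor gene, rose 3.01-fold to 537 ± 12.2 CPM, and Mest, a hydrolase family gene, went up from 135 ± 5.34 to 280 ± 8.22 CPM, or 2.07-fold (edgeR adjusted p = 1.09e-09 for Mest). Calcr, the calcitonin receptor gene, fell from 17.7 ± 2.45 to 0.664 ± 0.0742 CPM, the transporter gene Slc22a3 from 15.5 ± 0.458 to 2.41 ± 0.832 CPM, and the non-coding RNA H19 from 77.9 ± 1.69 to 34.2 ± 1.18 CPM (edgeR adjusted p = 1.31e-09 for H19). Both parental classes are found on both sides: among genes known as paternally expressed, Peg10, Igf2 and Mest rose while Snrpn and Nnat fell by 0.44 and 0.87 on the log2 scale, and among those known as maternally expressed, H19 fell while Igf2r rose 1.19-fold. Snrpn, Nnat and Igf2r were picked after their values were seen. On the TPM scale with limma-trend 8 rose and 9 fell, and without replicate 1 of the group without Activin A 14 rose and 11 fell. The list was drawn up with earlier results of these libraries known.

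**Figure D4:**
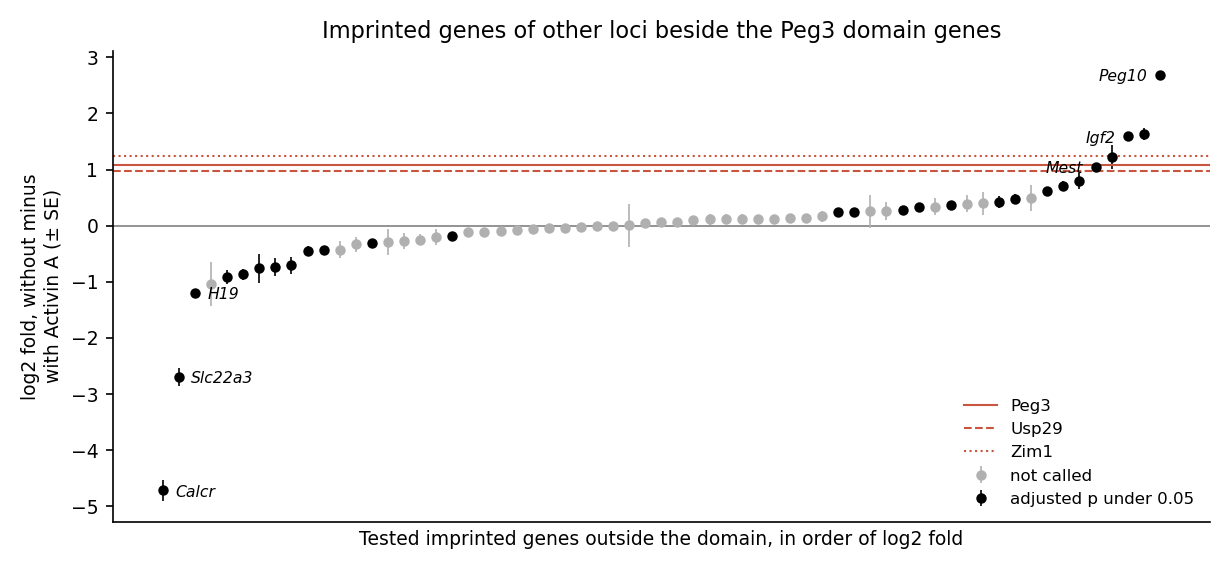
Log2 fold change, without minus with Activin A, with its standard error for the 63 tested imprinted genes outside the domain, in order of size. Black points passed an adjusted p of 0.05, and horizontal lines mark the values of Peg3 (1.08), Usp29 (0.97) and Zim1 (1.23), between which Mest and one further gene fall.

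Of 20 tested genes that set or keep imprints, 3 rose and 2 fell, against 14.0% and 15.2% of all genes. Dnmt3b, a de novo DNA methyltransferase, went from 287 ± 8.98 down to 163 ± 3.25 CPM, a 1.76-fold fall (edgeR adjusted p = 9.77e-09). Dnmt3a, its relative, fell by 0.37 on the log2 scale and Tet3, a methylcytosine dioxygenase gene, rose 1.42-fold, each with an edgeR adjusted p of 3.66e-05. Calls were lost on the TPM scale with limma-trend for Tet3 and Dnmt3a, and with the length offset for Dnmt3a, with adjusted p-values over all settings of up to 0.0583 and 0.681. The maintenance methyltransferase Dnmt1 and its partner Uhrf1 rose 1.12-fold each, calls lost on leaving out any one library without Activin A, where 1 gene rose and 2 fell. Both calls were also lost with upper-quartile scaling, where 1 rose and 3 fell, and with limma-trend, where 1 rose and 1 fell. The Dnmt1 call was lost with the length offset as well, where 3 rose and 1 fell. With the replicate block 4 rose and 3 fell. Without the library with Activin A replicate 3, 6 rose and 2 fell.

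Of the 15 genes of that list that did not pass, 4 are given by value. Zfp57, a zinc finger protein that protects imprints, had 92.1 ± 3.69 and 93.3 ± 3.32 CPM in the groups with and without Activin A. Its log2 fold, less and plus 1.96 standard errors, ran from -0.09 to 0.13. Trim28, the corepressor that ZFP57 recruits, was at 695 ± 31.9 and 711 ± 4.16 CPM, and Yy1, a zinc finger factor known to bind the Peg3 domain, at 131 ± 8.24 and 133 ± 2.38 CPM. The edgeR adjusted p-values were 0.847, 0.679 and 0.777. Atrx, which encodes a chromatin remodeller, was at 151 ± 23.2 and 177 ± 4.95 CPM, with a log2 fold of 0.24 and an edgeR adjusted p of 0.0792.

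A list drawn up for partners and pathways of the PEG3 protein showed 0 rises and 1 fall among 16 tested, against 14.0% of all tested genes called higher and 15.2% called lower. The list includes Traf2 of TNF signalling and the p53 arm with Trp53, Bax and the ubiquitin ligase genes of the Siah family. It also holds Usp7, Clspn and Chek1, whose link to PEG3 was not examined. Siah2 fell by 0.25 on the log2 scale, at an edgeR adjusted p of 0.0488, on the edge of the threshold. Its call was lost in 11 of 15 alternatives, including every removal of a single library other than with Activin A replicate 3, and without that library 3 genes fell. Siah1a, a known binding partner of PEG3, was at 18.6 ± 1.21 and 20.04 ± 0.507 CPM, Traf2 at 22.02 ± 1.91 and 19.5 ± 1.01 CPM, and Trp53 at 224 ± 22.0 and 240 ± 6.91 CPM. Those did not pass.

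Markers of the labelled cell type were present in both groups. Of 14 epiblast stem cell markers 13 were tested, of which 2 rose and 10 fell, against 14.0% and 15.2% of all tested genes. Pou5f1, the OCT4 gene, had 374 ± 28.1 CPM in the group with Activin A and 121 ± 2.35 CPM in the other. The pluripotency factor gene Nanog fell from 235 ± 12.1 to 59.5 ± 3.85 CPM, and Tdgf1, which encodes a Nodal co-receptor, fell 25.7-fold to 1.30 ± 0.0870 CPM. Lin28a and Sox2, for a let-7 binding protein and a pluripotency and neural factor, rose 1.59-fold and 1.33-fold. Feeder cells are a further place where Peg3 can be transcribed. Of 24 fibroblast markers, all tested, 7 rose, 9 fell and 8 did not pass, against 14.0% and 15.2% of all tested genes, none was at 0, and their summed level was 2037 to 2143 CPM with and 2756 to 2833 CPM without Activin A. That sum weighs abundant genes most, and the median log2 fold of the 24 was -0.15. Those that rose included Acta2 (2.42-fold), Col1a2 (1.71-fold) and Col5a2 (1.62-fold), which encode smooth muscle actin and collagens. Col3a1 and Lox, for a collagen and a collagen cross-linking enzyme, fell by 1.21 and 1.07 on the log2 scale. The marker Thy1 fell by 1.17, a call lost with limma-trend and with the length offset. On the TPM scale with limma-trend 6 markers rose and 3 fell, and with the length offset 6 rose and 4 fell, while 7 rose and 8 fell without replicate 1 of the group without Activin A. The part of these cells in the Peg3 levels was not tested.

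Of 9 tested neural markers 1 rose and 6 fell, against 14.0% and 15.2% of all tested genes, with a summed level of 718 to 724 CPM with and 440 to 449 CPM without Activin A. In the list of trophoblast and extraembryonic markers 5 of 12 had enough reads, 2 rose and 2 fell, beside the same shares of all genes, and the sum of the list was 7.08 to 9.53 and 9.14 to 10.4 CPM. DESeq2 called 0 of these 5.

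The genes whose log2 CPM ran most like Peg3 over the 6 libraries, among 10903 protein-coding genes that averaged 5 CPM or more, were Zc3hav1l (Pearson r = 0.9996), Lin28a (r = 0.9994) and Rnf213 (r = 0.9993). Lin28a had 338 ± 9.10 and 537 ± 5.48 CPM in the groups with and without Activin A. For Usp29 they were Ralgapa1, Hykk and Bicd1 (r of 0.993 to 0.994), and for Zim1 Eml4, Pogz and Dennd5b (r of 0.997 to 0.999). The correlation takes no account of the size of a change. Log2 folds were 0.25 to 0.32 in the Usp29 set and 0.20 to 0.51 in the Zim1 set, against 0.97 for Usp29 and 1.23 for Zim1. The Peg3 set had 0.67 to 0.91, against 1.08 for Peg3. No gene was shared between the 3 sets. All of these correlations include the difference between the groups, and the part of that difference in them was not tested. In all, 773 genes (7.09% of those compared) had an r above 0.95 with Peg3, 177 (1.62%) with Usp29 and 408 (3.74%) with Zim1.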

How the data were processed

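Poly(A) RNA of 6 libraries was sequenced, 3 with Activin A and 3 without, at 9946521 to 16350923 and 13567995 to 14992042 estimated reads. Per the file headers, the authors' deposited estimated counts and TPM values per transcript stand in the columns that salmon writes, and salmon, edgeR and DESeq2 appear, without versions, in the submitters' processing notes. Counts are not normalized, while the deposited TPM values are scaled for effective length and library total. For build, annotation and strand setting: not given in the sources used here.

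Of 133618 transcripts, 133399 matched GENCODE M21 on GRCm38 by identifier with the version ignored, and 219, holding 0.131% to 0.149% of reads, were left out. Counts were summed per gene, rounded and tested with edgeR 4.0.16 in R 4.3.3 (filterByExpr with a minimum count of 10 and total of 15, TMM scaling, robust quasi-likelihood F test, Benjamini-Hochberg adjustment over 15448 genes, threshold 0.05). Standard errors are the size of the log2 fold divided by the square root of F. The step was also run on simulated counts with the same dispersion for every gene. Those are simpler than the counts here, so the run does not bear on the calls given. Any pair of libraries of one group differed by more than sampling noise (chi-square per degree of freedom of 1.82 to 7.00).

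Named genes are the 4 domain genes, the tested genes within 1 Mb, up to 3 called genes per direction and list with the smallest p-values and no overlap between groups, and the 3 genes most like each detected domain gene. Genes outside this rule (Snrpn, Nnat, Igf2r, Zfp42, and those given as not called) were picked after their values were seen. Alternatives were upper-quartile or RLE scaling, DESeq2 1.42.0, limma 3.58.1 (its trend method) on log2(TPM + 1) and log2(TPM + 0.1), no low-count filter, a filter of 1 CPM in 3 libraries, a transcript length offset, the replicate number as a block and removal of each library. The members and lists were chosen with earlier results of these data known. Sequence words of 31 bases were compared between transcripts on both strands, and promoter windows were read from the RefSeq table of GRCm38.p6. Intervals are the log2 fold less and plus 1.96 standard errors, a normal quantile that is narrow for 3 libraries per group. They cover the spread between libraries, and the limit for a count of 0 covers counting error only.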

Additional observations from a re-analysis of the deposited data

How the results depend on the processing

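The log2 folds of Peg3, Usp29 and Zim1 stayed positive under all 15 alternatives. That of Zim1 was 0.55 with limma-trend on log2(TPM + 1) and 1.92 with the length offset. Over all genes, 4505 calls became 1559 and 1504 with limma-trend on log2(TPM + 1) and log2(TPM + 0.1), and 2050 with the length offset. In both limma settings 17 imprinted genes elsewhere, 2 imprint maintenance genes, 0 PEG3 partner genes and 9 feeder markers were called, against 27, 5, 1 and 16. With the length offset 1 gene within 1 Mb of Peg3, 0 partner genes and 10 feeder markers were called. RLE scaling, DESeq2 and no low-count filter each called 0 partner genes, and upper-quartile scaling called 2. On leaving out each library in turn, 0 to 1 genes within 1 Mb of Peg3, 3 to 8 imprint maintenance genes and 0 to 3 partner genes were called. The difference in share for Peg3-204 was 1.48 percentage points in reads. For Usp29-205 the share of TPM was 6.72 points lower without Activin A (-6.72), reversed to 5.63 points in shares of reads, and ranged from -16.8 to 1.17 on leaving out one library, so its direction is not settled at this depth. Without Activin A, Usp29-205 held 57.1% and 45.8% of the TPM in replicates 1 and 3, where Usp29-209 held 24.9% and 37.0%. In replicate 2 Usp29-205 held 81.7% and Usp29-209 had 0. The cause of these moves was not tested. Same-numbered libraries did not deviate together (correlations of -0.06 to -0.02), so the numbers were not taken as pairs. With the replicate block 4422 genes were called, and 0 within 1 Mb of Peg3, and the log2 fold of Peg3 was 1.08. Zfp264 gave no value under any setting.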
